A study of Mus musculus with 6 samples.

Results

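Guanylate-binding proteins (GBPs) and immunity-related GTPases (IRGs) are 2 families of GTP-hydrolysing proteins that mouse cells make when interferon reaches them. The 10 genes described are the GBP genes Gbp2, Gbp3, Gbp4, Gbp7, Gbp9 and Gbp11 and the IRG genes Iigp1, Irgm1, Irgm2 and Igtp, out of 30560 genes with a probe set annotated to 1 gene. They were chosen by gene symbol, with the probe set of the highest mean over all 6 arrays to be used for each. Every one of the 10 had a single such probe set, so the measured mean settled nothing. The set was proposed with earlier results of the same arrays known, so the differences below are a description of these genes.

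Interferon receptors signal through JAK kinases and STAT proteins. Interferon gamma acts mainly through gamma-activated sites (GAS) in promoters. Type I interferon acts mainly through interferon-stimulated response elements (ISRE), bound by a complex that holds STAT2 and IRF9, and IRF1 can bind them too. GBPs assemble as coats on vacuoles and bacteria inside the cell. Effector IRGs such as Iigp1 break up the vacuole membrane of parasites, whereas the regulatory IRGs Irgm1, Irgm2 and Igtp sit on the cell's own membranes and hold the effectors inactive there. Both families are known from macrophages and are also made by fibroblasts and other stromal cells.

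The cells were bone marrow stromal cells (BMSCs), plastic-adherent progenitors of bone, cartilage and fat, from femurs of mice aged 3 months (young, 3 arrays) and 18 months (aged, 3 arrays). All were sorted as Sca-1+ CD29+ CD45- CD11b- cells and grown in culture past the first passage, so RNA was taken from cultured cells and not from marrow. The sources used here do not give the strain, sex, housing or any treatment of the mice. The arrays are labelled biological replicates without naming animals, so a p-value reflects how much these arrays vary, and part of that may be technical.

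Array medians lay between 5.37 and 5.44 on the log2 scale. The 95th percentile of the array's negative control probe sets was 7.82 to 7.88 on young and 7.54 to 7.62 on aged arrays, and a value under its array's limit is called within the negative control range. Where no young array was above its limit, a fold is given as "at least", with each young value replaced by the limit where that was higher. Negative controls had a median difference (aged minus young) of -0.26 on the log2 scale and positive controls of -0.15. All 23 antigenomic background classes shifted the other way, by 0.01 to 0.29, with a median of 0.11. Of the markers of the sort, Itgb1 (CD29) read between 11.75 and 11.91 on all 6 arrays, while Ptprc (CD45) and Itgam (CD11b) stayed within the negative control range throughout. Ly6a (Sca-1) was not analysed here. The labels name no batch of culture or hybridisation, and an effect of one that followed age cannot be told apart from age.

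The promoters of the members are shown first, since these genes were high together in aged cells and are textbook targets of the factors named above. RefSeq promoter windows (GRCm38.p6, 250 bases before to 50 after an annotated start site) were matched by symbol for 6 members, namely Gbp2, Gbp3, Gbp7, Irgm1, Irgm2 and Igtp. Both strands were searched for the ISRE core, which is GAAA, any 2 bases and GAAA again, and for the GAS motif TTCNNNGAA. The 120 bases directly before the start site are printed 5′ to 3′ on the gene's strand, with matches to either motif in capitals. They lie at chr3:142620543-142620662 (plus strand) for Gbp2, chr3:142559924-142560043 (plus) for the first of 2 start sites of Gbp3, chr3:142530216-142530335 (plus) for Gbp7, chr11:48871421-48871540 (minus) for Irgm1, chr11:58214857-58214976 (plus) for Irgm2 and chr11:58199436-58199555 (plus) for Igtp.
Gbp2: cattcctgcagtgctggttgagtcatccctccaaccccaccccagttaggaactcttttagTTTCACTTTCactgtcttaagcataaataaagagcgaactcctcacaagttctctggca
Gbp3: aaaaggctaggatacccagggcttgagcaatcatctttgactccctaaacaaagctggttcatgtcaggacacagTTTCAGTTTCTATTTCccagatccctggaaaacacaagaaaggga
Gbp7: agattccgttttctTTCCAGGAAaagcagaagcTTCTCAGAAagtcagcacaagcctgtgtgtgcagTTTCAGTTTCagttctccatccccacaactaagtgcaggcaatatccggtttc
Irgm1: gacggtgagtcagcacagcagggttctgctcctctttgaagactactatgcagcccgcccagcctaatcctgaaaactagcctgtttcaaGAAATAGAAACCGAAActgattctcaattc
Irgm2: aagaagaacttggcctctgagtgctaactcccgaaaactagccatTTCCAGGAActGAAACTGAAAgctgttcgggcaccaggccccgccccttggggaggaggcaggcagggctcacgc
Igtp: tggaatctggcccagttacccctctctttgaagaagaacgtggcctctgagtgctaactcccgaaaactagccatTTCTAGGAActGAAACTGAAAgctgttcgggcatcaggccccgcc

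All 6 held the ISRE core, which occurred in 1131 of 32851 promoter windows (3.44%), and 3 of the 6 held the GAS motif, which occurred in 2726 (8.30%). In the 3 GBP promoters the ISRE core was read on the opposite strand, beginning 59 bases before the start site in Gbp2, 53 in Gbp7, and 45 and 39 in Gbp3, where the 2 matches overlap. In the IRG promoters it was read on the gene's strand, 34 bases before the start site in Igtp, 64 in Irgm2, and 30 and 24 in Irgm1, again overlapping. Gbp7 held 2 GAS matches farther upstream, at 106 and 87 bases. No GAS match overlapped an ISRE match in these promoters. The second annotated start site of Gbp3 had neither motif in its window. A match is a stretch of letters and does not show that a factor binds there.

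Igtp and Irgm2 shared a composite, a GAS match followed after a gap of 2 bases by the ISRE core. This spacing, noticed after the positions were seen, was counted only with the ISRE core read on the gene's strand. In that orientation it was present in 5 of the 32851 windows (0.015%). The 5 were Igtp, Irgm2, Tgtp1, Tgtp2 and Gm12185, which are IRG genes. The windows are not independent sequences: Igtp and Irgm2 matched at 87 of 90 bases (96.7%) when aligned without gaps. Among 11 other GBP and IRG genes with a promoter entry, 7 held the ISRE core and 5 the GAS motif, and Irgq, Ifi47, Gm5431 and 9930111J21Rik2 held neither.

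**Figure D1:**
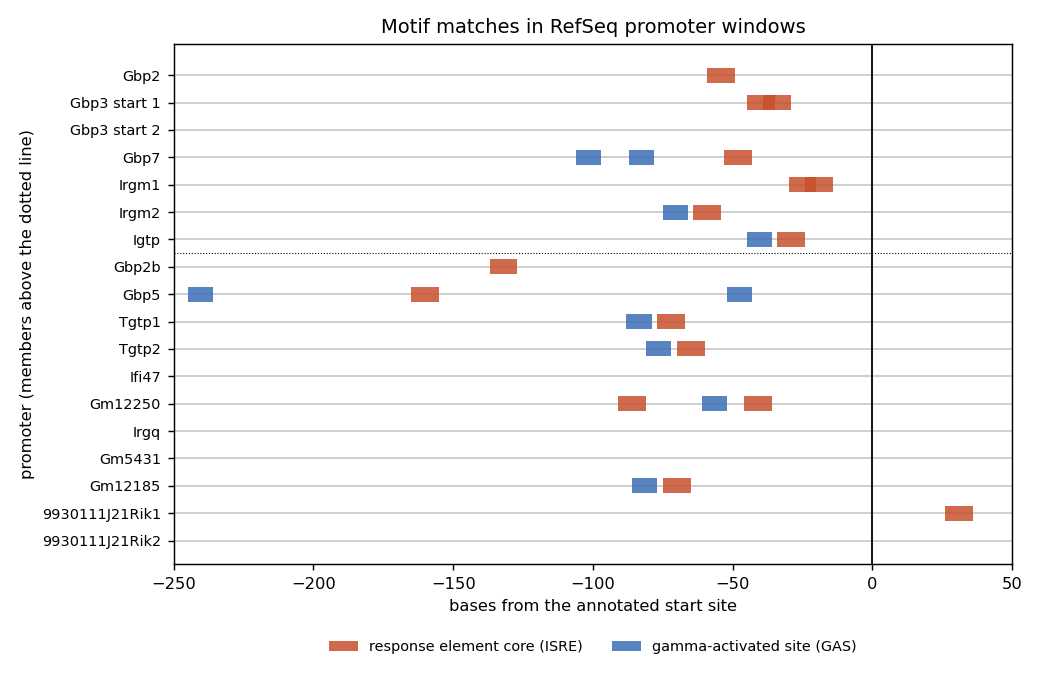
Positions of ISRE core matches (orange) and GAS matches (blue) in the promoter windows, with bases from the annotated start site on the x axis and 1 promoter per row, members above the dotted line. The ISRE core lies 24 to 64 bases before the start site in the 6 members, and a GAS match stands directly before it in Igtp and Irgm2.

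Among the GBPs, Gbp2, which coats parasite vacuoles and bacteria, read 8.65, 8.54 and 8.42 on the 3 young arrays and 11.20, 11.19 and 11.19 on the 3 aged arrays (log2 levels). The groups were far apart, and the mean rose from 8.54 ± 0.12 to 11.19 ± 0.01 (SD, n = 3 each), a 6.29-fold difference with a 95% interval of 5.78 to 6.84 (limma). In bulk RNA more expressing cells and more RNA per cell cannot be told apart. Gbp7, which takes part in defence against parasites and bacteria, read 8.73, 8.53 and 8.43 in young and 11.52, 11.55 and 11.55 in aged cells. All its aged arrays were well above the young ones, by 7.87-fold in the mean (95% interval 7.08 to 8.74).

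Gbp3 read 7.94, 7.73 and 7.68 in young and 10.87, 10.87 and 10.84 in aged cells. It was above the negative control limit on 1 of the 3 young arrays and on all aged arrays, and the measured fold was 8.43. Gbp2, Gbp3 and Gbp7 lie in the GBP cluster on chromosome 3 and have close paralogs there. Probe sequences were not used here, so how much signal a probe set takes from such relatives was not tested.

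The 3 GBPs of the chromosome 5 cluster had young values within the negative control range. Gbp9 read 7.68, 7.71 and 7.49 in young and 10.02, 9.96 and 9.98 in aged cells, at least 4.41-fold higher. For Gbp4, reported to restrain the transcription factor Irf7, the young levels were 7.06, 6.90 and 7.02 and the aged levels 8.95, 8.97 and 8.96, at least 2.16-fold higher. Gbp11 went from 6.81, 6.71 and 6.73 to 8.67, 8.73 and 8.65, at least 1.78-fold higher. In each of the 3 genes every aged array was above the limit and every young array below it. The 6 GBPs together had a median difference of 2.51 on the log2 scale, with a range of 1.93 to 3.08.

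Among the IRGs, Irgm1, a regulatory IRG needed for resistance to mycobacteria, was already above the negative controls in young cells, at 9.11, 9.05 and 8.92, and read 10.85, 10.82 and 10.84 in aged cells. Its rise of 1.81 on the log2 scale, or 3.51-fold (95% interval 3.25 to 3.78), was the smallest measured difference of the 10 genes. Igtp, also called Irgm3, read 7.48, 7.36 and 7.13 in young cells, within the negative control range, and 10.59, 10.57 and 10.59 in aged cells, at least 6.67-fold higher. Irgm2, the neighbour of Igtp whose promoter is nearly the same in sequence, read 6.92, 6.84 and 6.55 in young and 9.35, 9.41 and 9.50 in aged cells, at least 2.98-fold higher. The young and aged arrays did not overlap in any of the 3 regulators.

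Iigp1, an effector IRG, had the largest measured difference, 3.66 on the log2 scale. It read 4.96, 4.93 and 5.16 in young and 8.67, 8.62 and 8.73 in aged cells. All its young values lay within the negative control range, so the fold is given as at least 1.77.

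**Figure D2:**
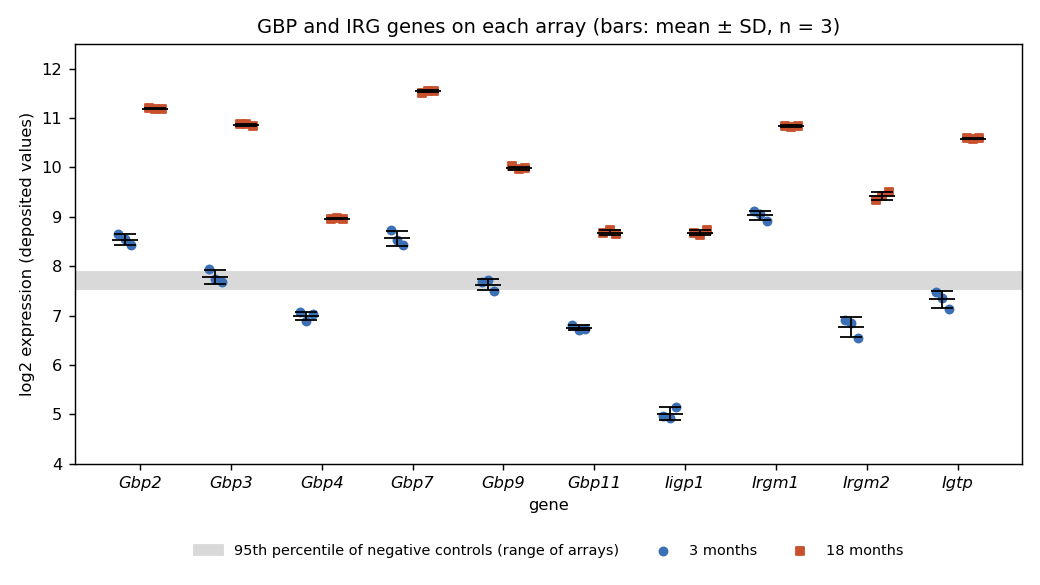
Deposited log2 expression (y axis) of the 10 genes (x axis) on each of the 3 young (blue circles) and 3 aged arrays (orange squares), with bars for mean ± SD and a grey band for the arrays' negative control limits of 7.54 to 7.88. All aged points lie above the band, while the young points of 6 genes lie wholly below their arrays' limits.

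All 10 genes rose with age, where 18.4% of 20087 genes tested rose and 40.5% changed in either direction (limma, Benjamini-Hochberg adjusted p under 0.05). Adjusted p-values from the fit over all genes (limma) lay between 3.27e-09 for Iigp1 and 8.23e-08 for Irgm2. Every member was higher in 3 of 3 aged arrays than in any young array, as were 24.4% of all tested genes, and in 51.3% the groups did not overlap in either direction. The narrowest gap between the lowest aged and the highest young array was 1.71, in Irgm1. The measured difference of each member was at least 1 on the log2 scale, as was that of 2.03% of tested genes with a call, although the bounds of Iigp1 and Gbp11 given above are lower than that. All 10 passed the level filter of a mean of 5.40 over the 6 arrays, Iigp1 only through its aged values, and all 10 rose without the filter as well. The median difference was 2.65 for the members and 0.01 for all tested genes. Of all tested genes 14 had a larger measured rise than Iigp1, and 144 had a rise at least that of Irgm1, the 10 members included.

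By size of the measured difference the order was Iigp1, Igtp, Gbp3, Gbp7, Gbp2, Irgm2, Gbp9, Gbp4, Gbp11 and Irgm1. The 95% intervals of neighbours in this order overlapped except between Iigp1 (lower bound 3.50) and Igtp (upper bound 3.44), between Gbp7 (lower bound 2.82) and Gbp2 (upper bound 2.77), and between Gbp9 (lower bound 2.23) and Gbp4 (upper bound 2.08). For the 6 genes whose young values were all within the negative control range, the order is that of the measured values only. Both subfamilies spanned much of the range, and the 4 IRGs had a median difference of 2.96.

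The aged arrays were closely alike for these genes, with SDs of 0.01 to 0.08, and the young arrays spread more, with SDs of 0.05 to 0.20. Young SDs were above aged SDs in 10 of 10 members, and in 78.0% of all tested genes. Young replicate 1 was the highest young array in 8 of 10 members (43.7% of all tested genes), and young replicate 3 the lowest in 7 (42.9% of all tested genes). Without young replicate 1 the median member difference was 2.72, and without young replicate 3 it was 2.57.

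Beyond the 10, 11 other genes of the GBP, IRG and giant GTPase (GVIN) families with a single-gene probe set were tested. Of these 9 rose and none fell, where 18.4% and 22.1% of all tested genes did so. Among the 9, Gm12250 and Gm4951 passed the level filter only through their aged values, with young means of 5.101 and 4.999. Without the filter 9 of 12 such genes rose. Gm12250, which RefSeq also lists as Irgb10, an effector IRG that opens bacterial membranes, went from 5.10 ± 0.14 to 9.39 ± 0.05 (SD, n = 3 each), at least 2.91-fold higher. Its measured difference of 4.29 was larger than that of Iigp1. The IRG genes next to Iigp1 on chromosome 18 rose as well, with Gm4951 up by 3.72, F830016B08Rik by 3.69, Gm4841 by 2.75 and BC023105, listed as a pseudogene, by 2.61 on the log2 scale. All had young values within the negative control range, so their folds are at least 1.83, 3.26, 1.69 and 1.44, in that order. Since they are paralogs of Iigp1, their separate values are uncertain. Gbp8, also within that range in young cells, rose by a measured 1.67 and is bounded at 1.05-fold or more. Gvin1, the giant member, was above the limit at both ages and rose 2.57-fold.

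Gm5431 and 9930111J21Rik2, IRG genes near Irgm1, rose by 1.32 and 1.22 on the log2 scale. Gm5431 was within the negative control range on every array, and 9930111J21Rik2 on the young arrays, with a fold of at least 1.11. The 2 family genes that did not pass were Irgq and Irgc1, relatives known for lacking interferon control. Irgq read 6.46, 6.20 and 6.22 in young and 6.31, 6.22 and 6.27 in aged cells, a difference of -0.03 (95% interval -0.20 to 0.15). Irgc1 read 6.64, 6.56 and 6.56 in young and 6.59, 6.51 and 6.90 in aged cells, a difference of 0.07 (95% interval -0.14 to 0.29). Both were within the negative control range on every array. Gm12187, a pseudogene, was too dim to be tested.

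A further 9 probe sets were annotated to several genes that include a family member, and these are given as probe sets, since the gene behind them is not settled. All 9 rose in a fit over every probe set, where 13.5% of 32978 probe sets rose (limma, adjusted p under 0.05). The probe set shared by Gbp6 and Gbp10 read 8.86, 8.76 and 8.71 in young and 11.14, 11.13 and 11.14 in aged cells, a 5.12-fold difference. A probe set shared by Tgtp1 and Tgtp2, near-identical effector IRGs, was at least 5.13-fold higher in aged cells. Another, shared by these genes and Gm12185, was at least 2.91-fold higher. The one shared by Gbp2b and Gbp5 went from 5.40 ± 0.08 to 7.03 ± 0.04 (SD, n = 3 each), and the one shared by Ifi47 and Olfr56 from 5.74 ± 0.06 to 7.05 ± 0.06, both within the negative control range at both ages.

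**Figure D3:**
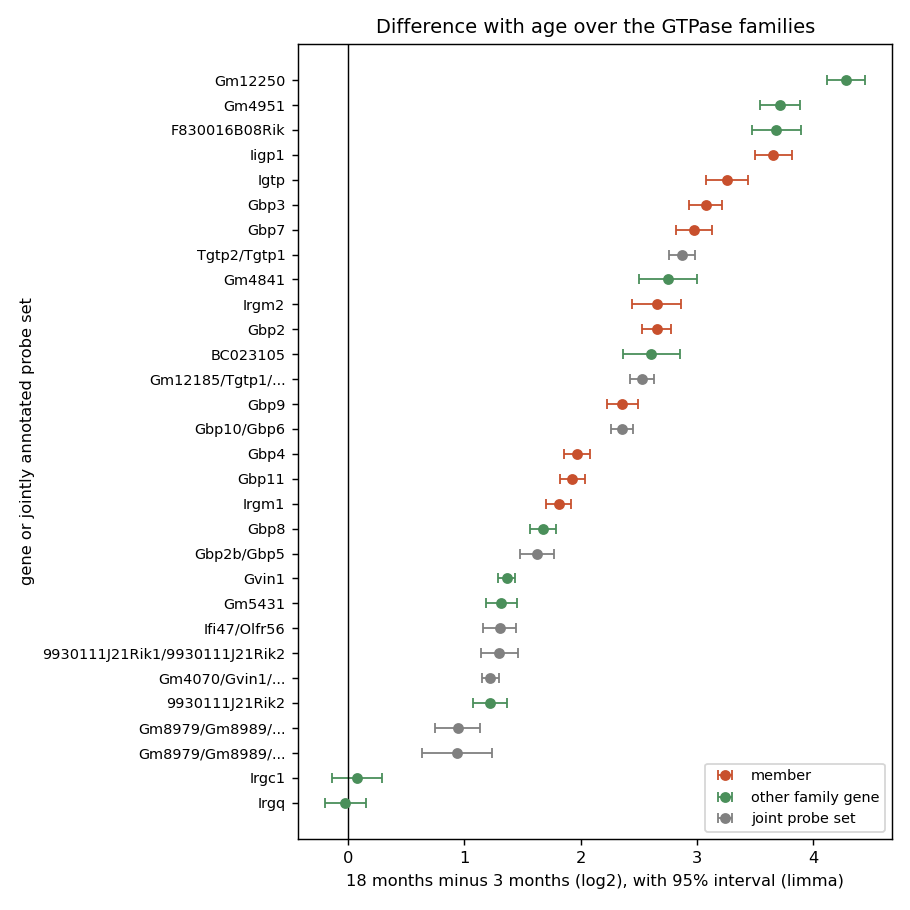
Aged minus young difference on the log2 scale (x axis) with 95% intervals from limma, for the 10 members (orange), 11 other tested family genes (green) and 9 probe sets annotated to several genes (grey). All but Irgc1 and Irgq, whose intervals include 0, lie above 0.

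The family genes sit in 5 clusters in RefSeq gene order, and the genes that flank those clusters were used as a local comparison. Of 50 flanking genes, the 5 nearest tested on each side, 8 rose and 10 fell, where 18.4% of all tested genes rose and 22.1% fell (limma, adjusted p under 0.05). Their median difference was -0.01 on the log2 scale. On chromosome 3 the flanking Unc5c, a netrin receptor gene, rose by 1.30, the largest rise of the 50, while Bmpr1b, a BMP receptor gene, fell by 0.50, the largest decrease. Kyat3 and Pkn2, on the other side of that cluster, differed by -0.18 and -0.12. On chromosome 5 the flanking Lrrc8b, a subunit of volume-regulated anion channels, fell by 0.40, against rises of 1.93 to 2.36 in Gbp9, Gbp4 and Gbp11 beside it. Lrrc8c, on the same side, rose by 0.18, and of the 10 genes flanking the chromosome 5 cluster 1 rose and 4 fell. Around the Igtp and Irgm2 cluster on chromosome 11, 4 of 10 rose and 1 fell, with differences of -0.31 to 0.57. Around the Irgm1 cluster 1 of 10 rose and 1 fell. The genes around the chromosome 18 cluster differed by -0.24 to 0.32. Within that cluster Gm5970, a predicted gene not on the family list and named after its value was seen, rose by 3.13. Other unlisted genes inside the clusters did not pass. These were Gm6960, also on chromosome 18, with a difference of 0.13, and Gm12186, in the Irgm1 cluster, with -0.15.

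**Figure D4:**
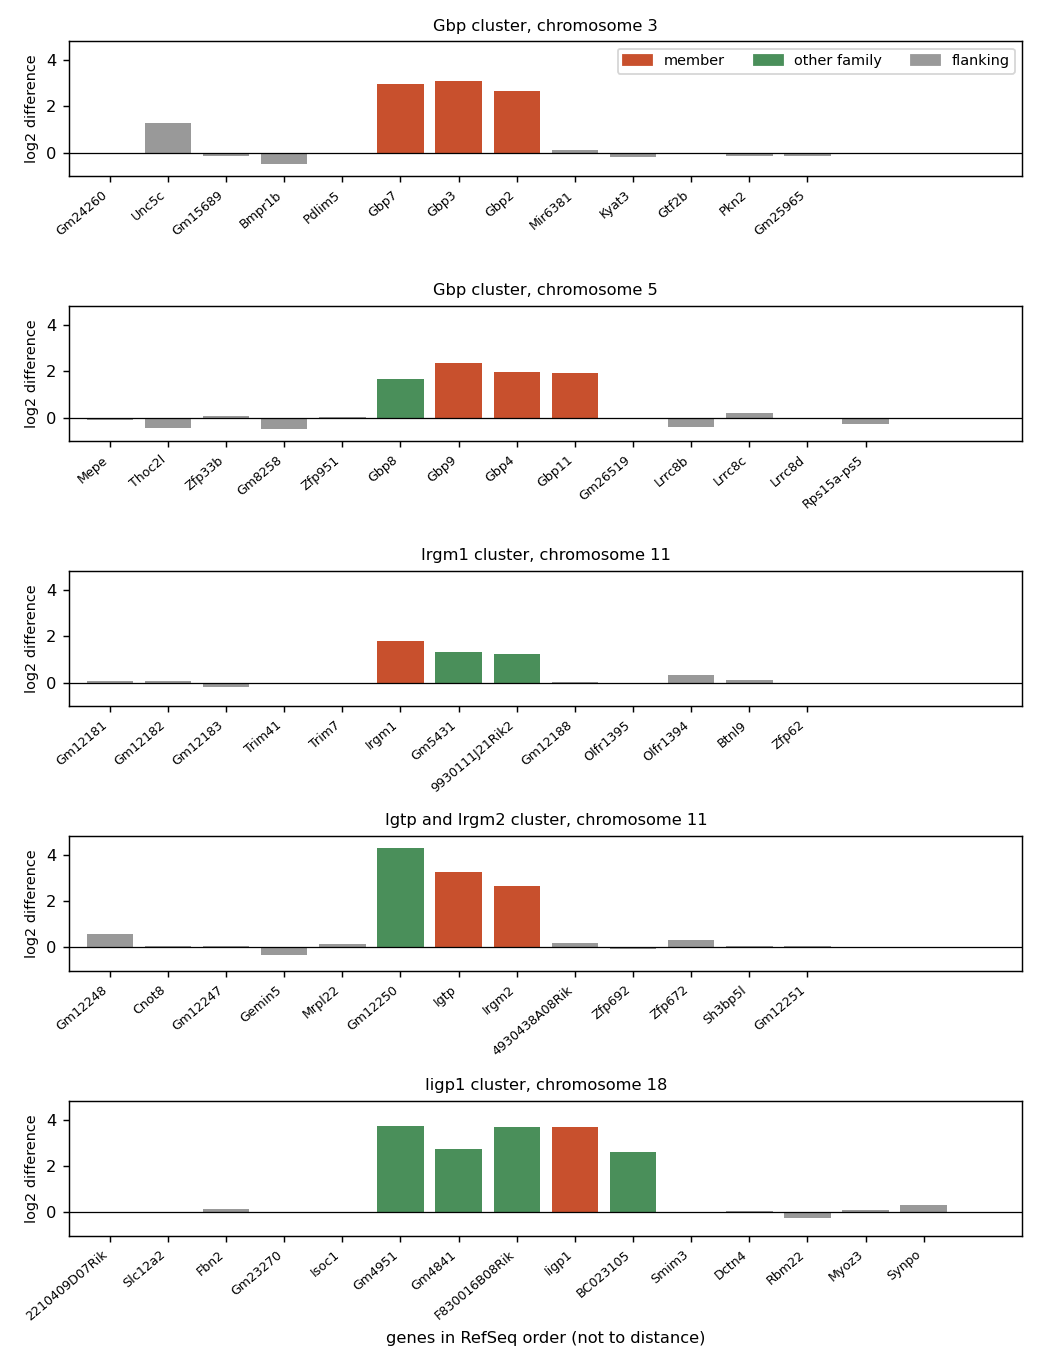
Aged minus young difference on the log2 scale (y axis) of family genes and of 5 flanking genes on each side, in RefSeq gene order for each of the 5 clusters, with members in orange, other family genes in green and flanking genes in grey. The bars are high over the family genes, from 1.22 to 4.29, and the flanking bars lie between -0.50 and 1.30.

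The genes closest to the members in pattern were sought by the Euclidean distance, on the log2 scale over the 6 arrays, between each gene's centred values and the mean centred profile of the 10 members. The 8 nearest were Deptor, Loxl3, Oasl2, Steap4, Tmem106a, Ifi207, Ifi27l2a and Sp100, with distances of 0.06 to 0.16. For scale, Gbp2 lay 0.05 and Iigp1 1.29 from the profile. Deptor, an inhibitor of the mTOR kinase, went from 7.82 ± 0.12 to 10.46 ± 0.01 (SD, n = 3 each), and Loxl3, a lysyl oxidase of collagen crosslinking, from 8.34 ± 0.14 to 11.01 ± 0.04. Oasl2, Ifi207, Ifi27l2a and Sp100 are known interferon-induced genes. With 2 ages and 3 arrays each, the distance reflects mostly the size of the age difference.

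Upstream of the families, transcripts of the interferons were dim at both ages. Ifng, the gene of interferon gamma, read 4.20 ± 0.05 in young and 4.30 ± 0.24 in aged cells, and Ifnb1, of interferon beta, 4.79 ± 0.09 and 4.87 ± 0.07 (SD, n = 3 each), all within the negative control range. Of 12 tested ligand, receptor and kinase genes 5 rose and 1 fell, and the median over the list was 0.07. Of all tested genes 18.4% rose and 22.1% fell. The largest rise was in Ifnar2, a chain of the type I interferon receptor, by 0.46, or 1.38-fold, and Ifngr1, of the interferon gamma receptor, rose by 0.17, which did not pass a test against a difference of 0.3. Ifnar1, the other type I chain, fell by 0.14, a size no larger than the shift of the positive controls.

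Among the transcription factors and brakes of the pathway 10 of 14 tested genes rose and 1 fell, where 18.4% and 22.1% of all tested genes did so. The median of the list was 0.41 on the log2 scale. Irf7, an amplifier of type I interferon production, rose at least 8.46-fold, and Usp18, a brake on the type I receptor, rose 7.56-fold. Stat2 and Irf9, partners in the complex that binds the ISRE, rose 4.35-fold and 2.46-fold. Irf1 rose 1.74-fold, from 8.32 ± 0.05 to 9.12 ± 0.01 (SD, n = 3 each), and Socs1, a feedback inhibitor of JAK kinases, rose 1.27-fold, which did not pass the test against 0.3.

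Partners of the GTPases in defence were mixed. Of 6 tested inflammasome and pyroptosis genes 5 rose and none fell, where 18.4% and 22.1% of all tested genes did so. Nlrp3, Nlrc4 and Il1b were too dim to be tested, and only 3 of the 9 listed genes were above the negative control limit on any array. Casp1, the inflammasome protease, rose at least 3.39-fold. Gsdmd, the pore-forming gasdermin, rose 1.89-fold, and Casp4, the sensor of bacterial lipopolysaccharide in the cytosol, rose 1.53-fold. Il18 and Aim2, both within the negative control range on every array, rose by 0.85 and 0.19 on the log2 scale. Of 17 genes of autophagy conjugation and vacuole targeting, which place IRGs and GBPs on membranes, 6 rose and 5 fell, a mixed count beside the 18.4% and 22.1% of all tested genes. Trim21, an interferon-induced ubiquitin ligase, rose at least 1.12-fold and Atg10 at least 1.23-fold, both with young values within the negative control range. Gabarapl1, an ATG8 protein, fell by 0.47 and Traf6, a ubiquitin ligase, fell by 0.44. Neither Atg10 nor Traf6 passed the test against 0.3.

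Some GBPs are anchored to membranes by a prenyl group, and of 7 tested prenylation enzymes none rose and 2 fell, a share near the 22.1% of all tested genes that fell. These were Pggt1b, by 0.25, and Fnta, by 0.20 on the log2 scale, sizes within the shift of the negative controls, and neither passed the test against 0.3. GBPs belong to the dynamin superfamily of large GTPases. Of 14 tested relatives 8 rose and 3 fell, where 18.4% and 22.1% of all tested genes did so. The median of the 14 was 0.24. Opa1 had the largest fall of the list, by 0.45, and Atl3 rose by 0.49, both above the negative control limit on every array. Dnm1 and Mfn2 rose by 0.23 and 0.25, and Dnm2 and Dnm1l fell by 0.11 and 0.10. These 4 were no larger in size than the negative controls' median shift, which was downward. The interferon-induced Mx2 rose at least 1.53-fold, its young values within the negative control range. Mx1 had a measured rise of 1.84 on the log2 scale but stayed within that range on every array. The membrane-remodelling genes Ehd3 and Ehd2 rose 11.6-fold and 2.40-fold.

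**Figure D5:**
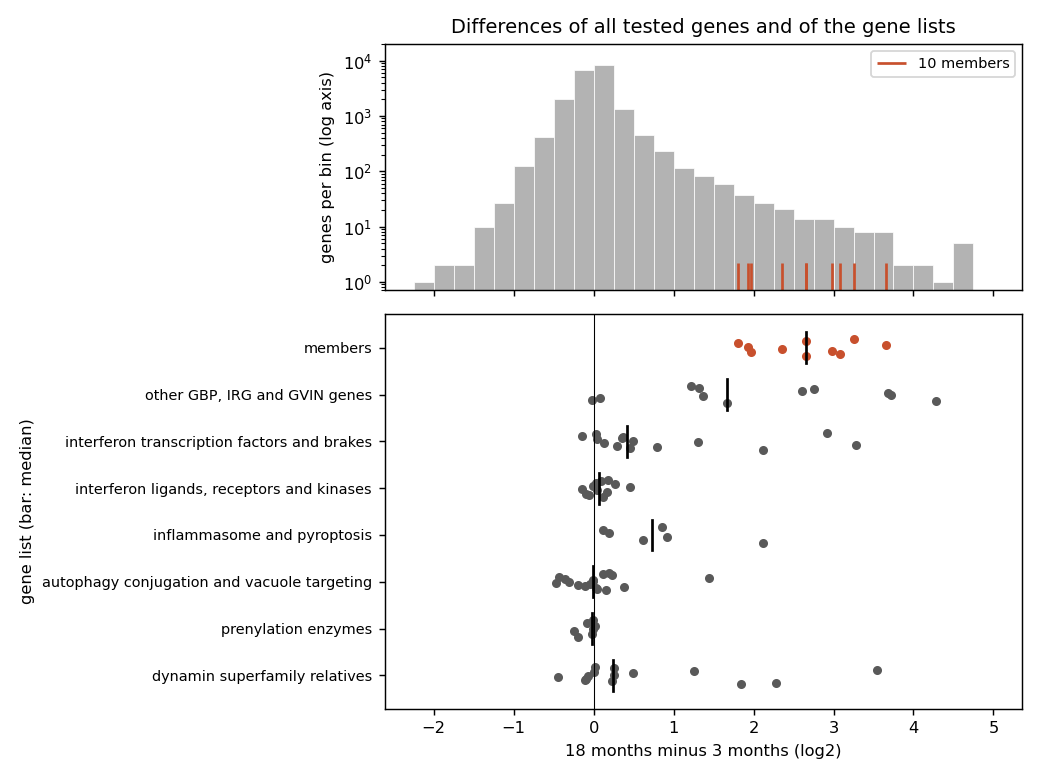
Upper panel, number of genes per bin (log axis) by aged minus young difference on the log2 scale, with the 10 members as orange ticks. Lower panel, the same difference for each tested gene of the lists, with a bar at each list's median, which is 2.65 for the members and between -0.02 and 1.67 for the others.

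GBPs and IRGs are abundant in macrophages, lymphocytes and endothelial cells after interferon, so markers of those cells were read beside them. None of 14 macrophage, monocyte and dendritic markers was above the negative control limit on any array, where 10333 of all 30560 genes were. The summed level of the 14 markers was 9.55 to 9.57 in young and 9.60 to 9.63 in aged cells on the log2 scale. The same held for 10 T and NK cell markers, with summed levels of 8.81 to 8.95 and 8.98 to 9.02, and for 7 B cell markers, at 8.56 to 8.70 and 8.69 to 8.72. None of 10 endothelial markers was above the limit either, with summed levels of 9.23 to 9.36 and 9.34 to 9.37. Within that range Gzmb, Il2rb, Nkg7, Cd14 and Kdr were measured higher in aged cells, by 0.54, 0.27, 0.22, 0.35 and 0.69. Gzmb passed the level filter only through its aged values. So 3 of 6 tested T and NK cell markers rose, as did 1 of 7 macrophage, monocyte and dendritic and 1 of 7 endothelial markers. Of the endothelial markers 2 fell. Over all tested genes 18.4% rose and 22.1% fell. Markers under the limit do not show that such cells were absent, and a part of such cells in the rise of the GTPases was not tested. Of 10 stromal markers 7 were above the limit, while Thy1, Eng and Nt5e were within the negative control range on every array. With age 6 of the 10 rose and 2 fell, where 18.4% and 22.1% of all tested genes did so. Vcam1 rose 2.01-fold, Prrx1 1.81-fold and Col1a1 1.73-fold, and Nt5e, within the negative control range, fell by 0.54 on the log2 scale. Whether this shift has a part in the rise of the GTPases was not tested.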

How the data were processed

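Total RNA was hybridised to 6 Affymetrix arrays as biotin-labelled cRNA, per the labels' protocols. Each probe set has a log2 value as deposited by the authors, used without further scaling. The submitters' processing notes name MAS5, and other steps are not given in the sources used here. Of 72688 probe sets, 31089 had 1 gene and 1661 several after symbols were updated through RefSeq (GRCm38.p6); the rest stayed unnamed. One probe set per gene (highest mean) was kept, and genes with a mean under 5.40, the median of transcript clusters, were left out, which kept 20087. Ages were compared with limma 3.58.1 in R 4.3.3 (eBayes with intensity trend, Benjamini-Hochberg), checked on simulated data. An exact permutation test of 3 against 3 arrays cannot go below 0.1. The members and gene lists were chosen with earlier results of these data known. Named genes were the members, the family, the 4 largest called differences per list, preset regulators, flanking genes and the 8 nearest profiles. Some markers and further list genes were named beside them, with their values known. Array number limits the precision. Figures used matplotlib 3.10.9.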

Additional observations from a re-analysis of the deposited data

How the results depend on the processing

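All 10 members stayed higher in aged cells under quantile normalization, median centring, no level filter, the mean of a gene's probe sets, no intensity trend, robust estimation, a test against a difference of 0.3, each array left out, and, added after the data were seen, every probe set tested. With only genes whose mean exceeded the negative controls' 95th percentile (7.61), Iigp1 was not tested and 9 of 9 passed, but Gbp4, Gbp11, Irgm2 and Igtp clear that level only through their aged values, so this count supports nothing. The median member difference stayed between 2.57 and 2.72. With the replicate number as a block 10 members and 9 other family genes rose, as without it, and 32 pathway genes rose and 10 fell. Same-numbered arrays did not deviate together (r of -0.05, 0.07 and 0.02). The labels name no pairing, and small correlations cannot show that there was none, since a weak pairing would look alike. Of 11 other family genes 9 rose, among them Gm12250 and Gm4951, which clear the main level filter only through their aged values. Under the stricter level filter 2 of 2 rose, of which F830016B08Rik clears it only through its aged values. Of 70 pathway genes 34 rose and 12 fell, where 18.4% and 22.1% of all tested genes did so. The pathway genes that fell numbered 7 after median centring (the cause was not tested) and 2 in the test against 0.3, where 17 rose. With an array left out they numbered from 7, without aged replicate 1 or aged replicate 2, to 15. Atg10, Fnta, Ifngr1, Il10rb, Pggt1b, Socs1, Traf6 and Tyk2 did not pass the test against 0.3, and Tyk2 did not pass without aged replicate 2 (limma, adjusted p = 0.0529). The ISRE core was found in 6 of 6 member promoters also when only bases before the start site were read. Values under the negative control limit have only a bound.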
